A study of Mus musculus with 12 samples.

Results

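Potassium channel genes were followed in mouse lung RNA from 6 samples with acute lung injury (ALI) and 6 controls. The genes were taken by name: every protein-coding gene of the deposited count table whose symbol starts with Kcn, which gave 94 of 54532 genes. Of these, 51 had a mean of at least 1 CPM (reads counted to the gene, scaled to a common library size) in one group or the other and are described by class. They comprise 18 voltage-gated channel genes, 10 inward rectifiers, 7 tandem-pore channels, 5 calcium- or sodium-activated channels and 11 genes for auxiliary subunits and regulators.

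The study concerns lung injury after drowning in seawater, per its design text, and RNA was extracted from whole lung tissue. The control samples carry the treatment label control and the injured samples the label acute lung injury, and the labels give no strain, sex, age, genotype, exposure dose or time of collection. Neither what the controls received nor whether each sample is a separate animal is given in the labels. The p-values therefore reflect only variation among these 12 samples, part or all of which may be technical. Each library held between 15707937 and 19706494 counts.

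Potassium channels let potassium leave or enter a cell down its gradient and so set the resting membrane potential. Voltage-gated channels open on depolarisation, inward rectifiers pass current best near the resting potential, tandem-pore channels leak, and calcium-activated channels couple the potential to calcium. In the lung they are known for control of vascular and airway smooth muscle tone, for the driving force behind chloride and fluid transport across epithelium, and for calcium entry in lymphocytes and macrophages. Potassium leaving macrophages is also a trigger of the NLRP3 inflammasome.

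Of the 51 genes, 14 were higher and 13 lower in ALI in edgeR's quasi-likelihood test at an adjusted p under 0.05, and 24 were not called. The called share, 52.9%, stands beside 36.6% of all 16185 genes tested, with 18.9% of all genes called higher and 17.7% called lower. Those 16185 genes were not held to the 1 CPM limit, and the 3 tested members under that limit were not called. The call came with a 2-fold or larger change in 11 of the 51 members, and in 11.7% of all tested genes. The groups were separated completely in 10 members, with ALI on top in 6 (13.1% of all tested genes) and control on top in 4 (8.25%). The median log2 change was -0.09 over the 51 members and -0.06 over all tested genes. The 1 CPM limit lets a gene in through its higher group alone, as 6 members entered through ALI and 4 through control, so these counts describe the members and are no test of them. With the limit set on the mean over all 12 samples, 49 members remained, 14 of them higher and 12 lower.

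**Figure D1:**
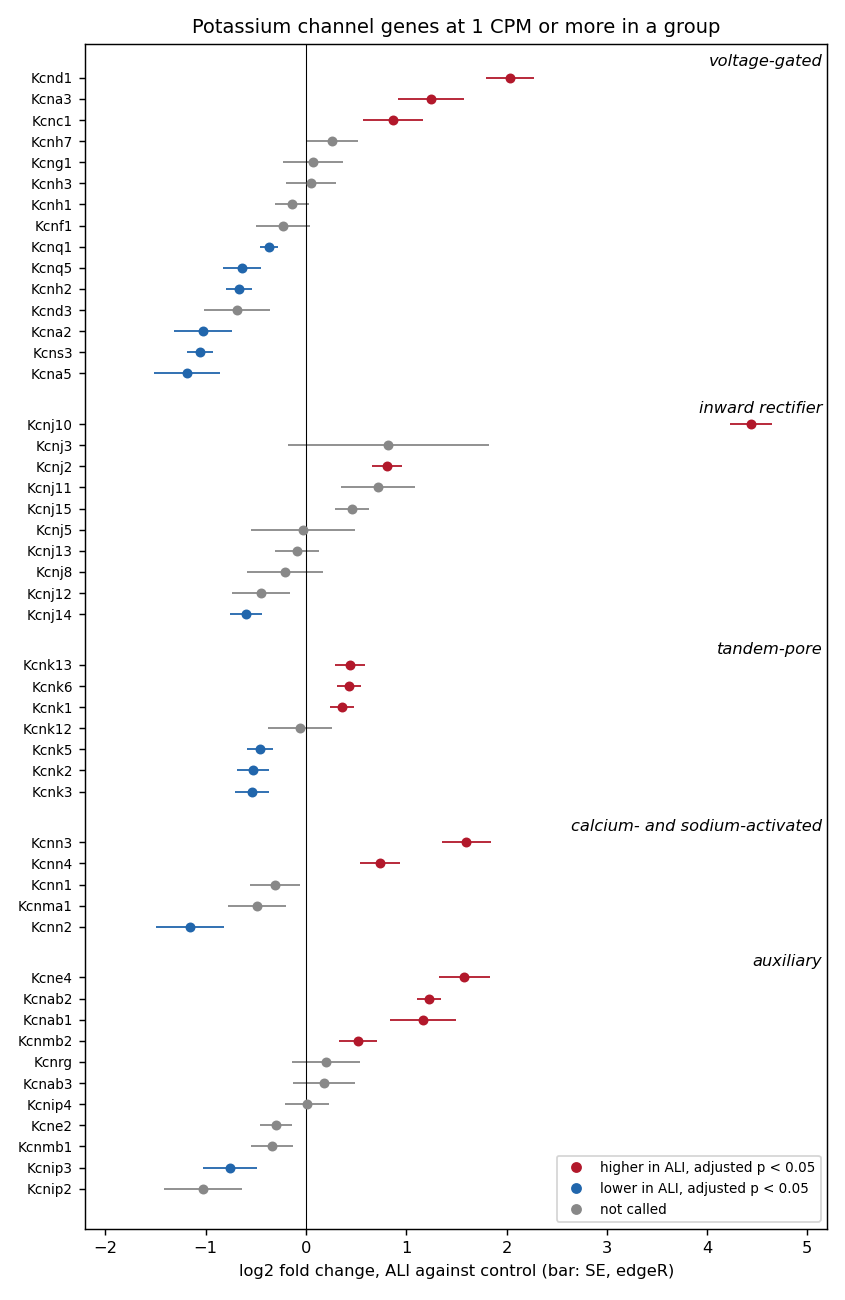
Log2 fold change of ALI against control (horizontal axis) for 48 potassium channel genes at 1 CPM or more, ordered within class, with bars for the standard error from edgeR and colours for the call (6 samples per group). Kcnj10 stands at 4.44, above Kcnd1 at 2.03, and most other called genes lie within about 1 unit of 0 on either side or a little beyond.

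Several other features of the samples moved with the groups and are given here beside the channel results. The summed level of 12 macrophage markers was 4450 to 4710 CPM in controls and 11000 to 17800 CPM in ALI, with all 12 markers called higher. The sum of 12 capillary endothelial markers was 5350 to 8080 CPM in controls (7370 to 8080 without control 5) and 3300 to 4470 CPM in ALI, with all 12 called lower. Smooth muscle markers (5 of 9 called lower) summed to 682 to 902 CPM in controls and 394 to 759 CPM in ALI, and pericyte markers (7 of 8 lower) to 902 to 1440 CPM (1160 to 1440 without control 5) and 830 to 971 CPM. Markers of dividing cells (10 of 10 higher) summed to 38.9 to 88.0 CPM in controls and 461 to 571 CPM in ALI, and neutrophil markers (8 of 9 higher) to 88.5 to 143 and 165 to 399 CPM. Alveolar type 1 markers (9 of 11 lower) summed to 6350 to 10100 CPM in controls (8990 to 10100 without control 5) and 4800 to 5890 CPM in ALI. Airway secretory markers (4 of 8 lower) summed to 11200 to 28300 CPM in controls (11200 to 15300 without control 5) and 3110 to 7100 CPM in ALI, and B cell markers (5 of 8 lower) to 224 to 383 and 108 to 260 CPM. In bulk tissue, fewer cells of a type and less RNA per cell cannot be told apart, and the part of these shifts in the channel results was not tested. Alveolar type 2 markers, which identify the tissue as lung, were 4 of 10 called higher and 1 lower. They summed to 22500 to 29800 CPM in controls and 21200 to 26700 CPM in ALI. Control 5 stood apart in its adipose transcripts: these markers summed to 11300 CPM there, to 925 CPM in ALI 2 and to 9.04 to 42.1 CPM in the 10 other samples. The same sample also had the lowest control sums of capillary endothelial (5350 CPM), alveolar type 1 (6350), pericyte (902) and nerve and glia markers (578, against 855 to 1050 in the other controls) and the highest of airway secretory markers (28300).

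Levels were compared between genes as CPM per kilobase of transcript. In controls Kcnk3 stood highest at 20.8 ± 7.20 CPM per kilobase (SD, n = 6), followed by Kcnj15 at 11.8 ± 2.56, Kcnq1 at 9.34 ± 0.797, Kcnk2 at 9.13 ± 2.09 and Kcnk1 at 8.60 ± 1.49. The ranges of mean ± SD of Kcnk3 and Kcnj15 overlap, as do those of the last 4, and the order was not tested. The Kcnk3 mean includes control 5, at 139 CPM against 60.4 to 77.9 CPM in the other controls. In ALI the order began with Kcnj15 at 16.3 ± 3.75 CPM per kilobase and Kcnk3 at 14.3 ± 1.03, which overlap in their spread, then Kcnk1 at 11.1 ± 1.12, the beta subunit gene Kcnab2 at 9.14 ± 1.59 and Kcna3 at 8.33 ± 2.70. Kcnj10 moved from place 45 of 51 in controls to place 17 in ALI. Kcnma1, the pore subunit of the large-conductance calcium-activated channel, was the lowest of the 51 per kilobase in both groups, at 0.0757 ± 0.0221 and 0.0537 ± 0.0192 CPM per kilobase. That place depends on its length of 16976 bases. In CPM it was not the lowest, with means of 1.29 in controls and 0.912 in ALI, against 1.08 and 0.525 for Kcnip2.

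**Figure D2:**
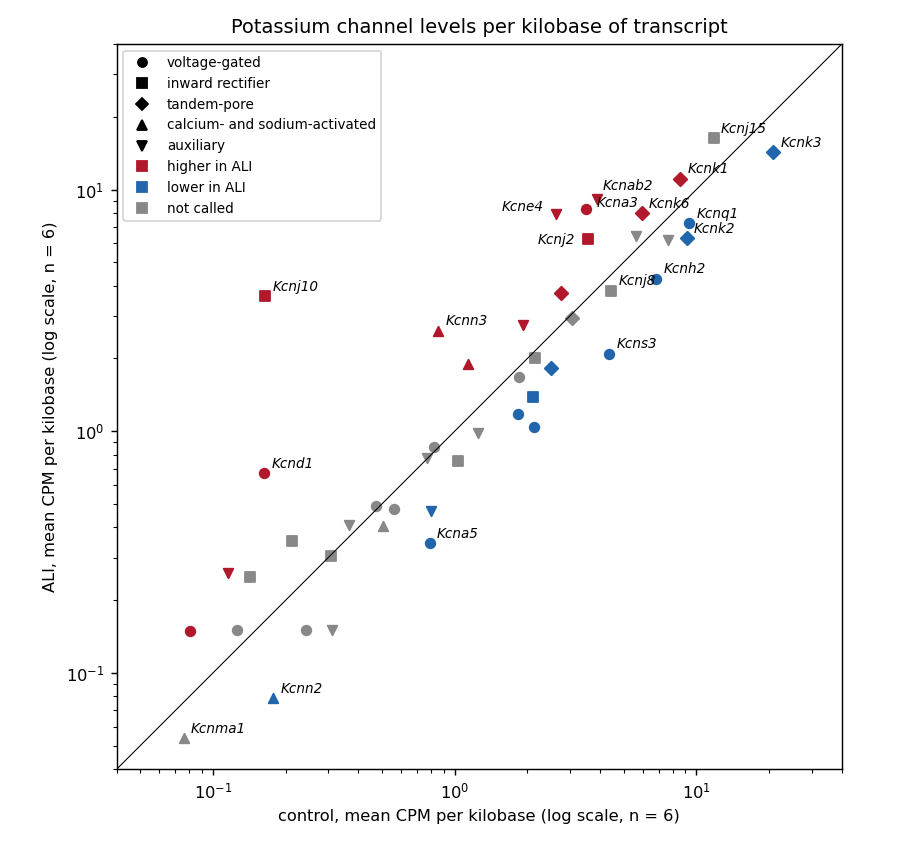
Mean level of each of 48 genes in control (horizontal) and ALI (vertical), in CPM per kilobase on log axes, with marker shape for class, colour for the call and a line of equality. Kcnk3 and Kcnj15 sit at the upper end in both groups, and Kcnj10 lies farthest from the line, at 0.165 in control and 3.62 in ALI.

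Among the inward rectifiers, Kcnj10 (ENSMUSG00000044708, chromosome 1, 172341210 to 172374085 on GRCm38, plus strand) was changed most. It encodes Kir4.1, a channel known for potassium buffering by glia and for potassium recycling in the distal tubule of the kidney. Its level in controls 1 to 6 was 0.974, 0.805, 0.820, 1.35, 0.75 and 0.669 CPM, and in ALI samples 1 to 6 it was 23.2, 15.4, 13.1, 20.1, 22.4 and 23.3 CPM. Every ALI sample was thus far above every control, the lowest being ALI 3. It rose 21.6-fold (log2 change 4.44, SE 0.21, adjusted p = 1.38e-08 by edgeR), resting on 91 counts over the controls and 2067 over the ALI samples. Kcnj16, whose product is known to form mixed channels with that of Kcnj10, had means of 0.0669 and 0.0288 CPM and was too low to be tested. Nerve and glia markers summed to 578 to 1050 CPM in controls and 623 to 777 CPM in ALI. Of 6 tested, 1 was called higher and 2 lower. Which cells held the Kcnj10 RNA was not tested.

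The 250 bases before the start of Kcnj10 are shown because it rose most, beside those of Kcnn3, another member with a large rise and no overlap between groups. Both windows are from RefSeq on GRCm38.p6, end at the base before the annotated start, hold no annotated exon of their gene and lie on the plus strand, at chr1:172340960-172341209 and chr3:89519914-89520163. Capitals mark matches, on either strand, to the letters searched, which were those of the TATA box (TATAAA), of the CCAAT box, of the AP-1 site (TGANTCA), of the STAT site (TTCNNNGAA) and of the E-box (CACGTG). A match describes the letters and is not evidence of binding.
Kcnj10: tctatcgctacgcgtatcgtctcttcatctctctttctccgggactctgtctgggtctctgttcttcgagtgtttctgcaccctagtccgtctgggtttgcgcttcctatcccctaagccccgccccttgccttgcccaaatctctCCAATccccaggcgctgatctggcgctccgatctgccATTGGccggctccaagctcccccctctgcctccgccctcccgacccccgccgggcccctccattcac
Kcnn3: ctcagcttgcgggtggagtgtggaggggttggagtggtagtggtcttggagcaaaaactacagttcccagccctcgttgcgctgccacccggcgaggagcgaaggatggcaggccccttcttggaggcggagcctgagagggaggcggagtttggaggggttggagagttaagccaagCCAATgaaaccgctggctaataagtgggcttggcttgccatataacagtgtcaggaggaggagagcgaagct
The Kcnj10 window held CCAAT, on one strand or the other, at 104 and 67 bases before the start, and the Kcnn3 window held it at 72 bases. Among 32851 promoter windows of the same length CCAAT was present in 33.8%, so such a match is common. The other letters, present in 12.4% (TATA box), 6.75% (AP-1), 7.02% (STAT) and 6.02% (E-box) of windows, had no match in either.

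Kcnj2 (ENSMUSG00000041695, chromosome 11, 111066164 to 111076821, plus strand), which encodes the strong rectifier Kir2.1 of endothelium, muscle and macrophages, rose too. Controls ranged from 13.2 to 22.9 CPM with a median of 20, and ALI samples from 29.1 to 40.8 with a median of 32.2, so the groups did not overlap. The rise was 1.75-fold (log2 change 0.81 ± 0.15, edgeR adjusted p = 0.000534). Kcnj14, the gene for the related Kir2.4, fell from 5.73 ± 0.820 to 3.78 ± 0.693 CPM (log2 change -0.60 ± 0.16, edgeR adjusted p = 0.00927). Its ALI values, 2.84 to 4.86 CPM with a median of 3.70, lay below the lowest control in 5 of 6 samples, and controls ran from 4.40 to 6.71 with a median of 5.69.

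Kcnj15, the most abundant inward rectifier per kilobase, encodes Kir4.2. Its level was 50.6 to 97.5 CPM in controls (median 77.7) and 71.5 to 127 CPM in ALI (median 109), and 4 of 6 ALI samples exceeded every control. Its log2 change of 0.46 ± 0.17 was not called (edgeR adjusted p = 0.0527). DESeq2 called it on all samples (0.46, adjusted p = 0.0387). In edgeR it was called without control 4 (0.55, adjusted p = 0.0267), without ALI 1 (0.52, adjusted p = 0.0361) and without ALI 4 (0.54, adjusted p = 0.0232).

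Kcnj8 encodes Kir6.1, the pore of the ATP-sensitive channel of vascular smooth muscle and pericytes. Controls 1 to 6 held 7.36, 6.01, 6.61, 7.69, 31.9 and 8.42 CPM, and the ALI samples held 9.47, 9.26, 11.5, 10.5, 10.1 and 7.63 CPM. Control 5, the sample that stood apart in adipose and other marker sums, was far above the rest, and among the others the ALI samples were mostly the higher ones. With all samples the log2 change was -0.21 ± 0.38 and not called (edgeR adjusted p = 0.700), whereas without control 5 it was 0.43 (adjusted p = 0.0159). Abcc9, the gene of the regulatory subunit that pairs with it, held 20.2 CPM in control 5, within the control range of 13.3 to 21.2 CPM, and 8.63 to 19.7 CPM in ALI, and was not called (edgeR adjusted p = 0.212).

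The remaining 5 inward rectifiers were not called. Kcnj3 and Kcnj5, which together form the channel gated by G proteins in atrial muscle, stood at 0.738 ± 0.531 and 1.45 ± 0.828 CPM in controls and at 1.30 ± 2.31 and 1.43 ± 1.31 CPM in ALI. In both, ALI 6 was the highest sample, at 6.0 and 4.09 CPM, against at most 0.719 and 1.02 CPM in the other ALI samples, and without it the log2 change of Kcnj3 was -1.04 instead of 0.82 (SE 1.0). The 11 cardiac muscle markers summed to 436 CPM in ALI 6, to 67.0 to 143 CPM in the other ALI samples and to 93.0 to 259 CPM in controls. Kcnj11, the pore of the ATP-sensitive channel in the pancreas and heart, had means of 0.785 and 1.29 CPM in control and ALI. Kcnj12, a further strong rectifier, had 2.83 and 2.08 CPM, and its log2 change of -0.45 was called without control 5 (-0.61, edgeR adjusted p = 0.0450). Kcnj13 had 2.72 and 2.55 CPM, but 49.1% of its exon bases overlap Gigyf2 on the other strand, a gene at 57.4 and 57.7 CPM, and the sources used here do not say whether counting used strand.

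**Figure D3:**
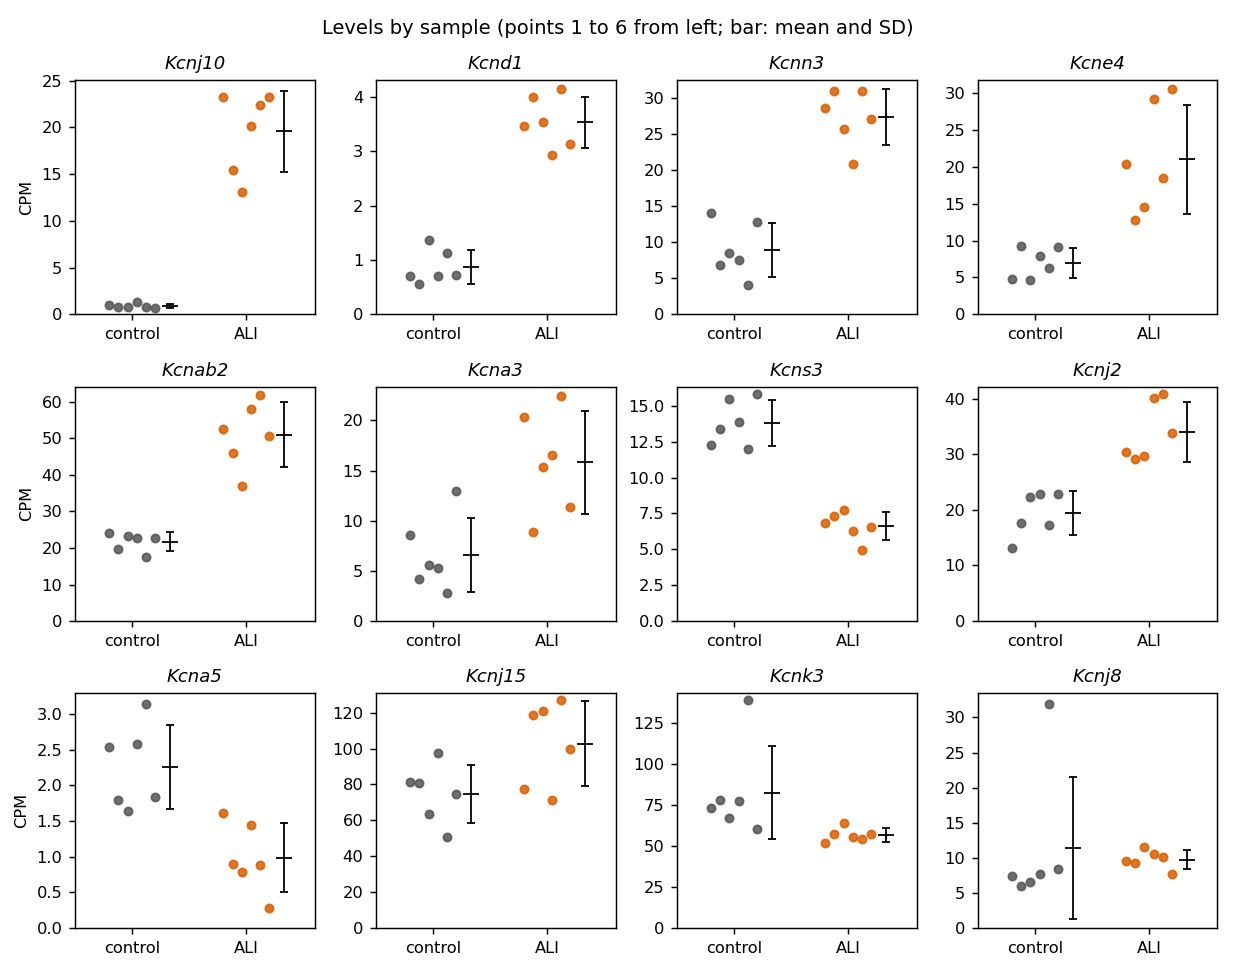
CPM of 12 potassium channel genes in each control and ALI sample (points from sample 1 at the left to sample 6 at the right of each group, 6 per group), with the mean and SD as bars and vertical axes from 0. Kcnj10, Kcnd1, Kcnn3, Kcne4, Kcnab2 and Kcnj2 separate the groups upward and Kcns3 and, by a narrow gap, Kcna5 downward. Control 5 is the high point of Kcnk3 (139) and Kcnj8 (31.9).

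Voltage-gated channel genes changed in both directions, 3 of 18 higher and 7 lower, beside 18.9% and 17.7% of all tested genes. The largest rise among them was in Kcnd1 (ENSMUSG00000009731, chromosome X, 7822289 to 7838280, plus strand), which encodes Kv4.1, a channel of rapidly inactivating current. Controls 1 to 6 held 0.703, 0.557, 1.37, 0.704, 1.12 and 0.725 CPM and ALI samples 1 to 6 held 3.46, 4.01, 3.55, 2.94, 4.14 and 3.14 CPM. The groups did not overlap, and the rise was 4.08-fold (log2 change 2.03 ± 0.24, edgeR adjusted p = 1.07e-05) from 87 to 378 counts. Its relative Kcnd3 went from 2.33 ± 0.894 to 1.45 ± 0.538 CPM and was not called (log2 change -0.69 ± 0.33, edgeR adjusted p = 0.122), but was called lower without control 5 (-0.87, adjusted p = 0.0148).

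Kcna3 (ENSMUSG00000047959, chromosome 3, 107036169 to 107038070, plus strand) encodes Kv1.3, which sustains calcium entry in activated T cells and is also known from macrophages. It rose from a median of 5.48 CPM (2.85 to 13.0) in controls to 16.0 CPM (8.87 to 22.4) in ALI, a log2 change of 1.25 ± 0.33 (edgeR adjusted p = 0.00933). The groups overlapped through control 6, at 13.0 CPM, and ALI 2 and ALI 6, at 8.87 and 11.4 CPM. The 10 T cell markers, of which 1 was called higher and 1 lower, summed to 71.0 to 102 CPM in controls and 73.3 to 101 CPM in ALI. The macrophage marker sum was higher in every ALI sample, as given above. Which cells held the Kcna3 RNA was not tested.

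Kcnc1, a channel of fast-spiking nerve cells, stood at 0.758 ± 0.292 CPM in controls and 1.41 ± 0.349 CPM in ALI. Its call rested on few counts (79 and 150) and lay near the threshold. The log2 change was 0.87 ± 0.30 (edgeR adjusted p = 0.0359), and it was called in only 4 of the 12 fits that left out 1 sample. The call was lost without control 2, 3 or 5 and without ALI 1, 3, 4, 5 or 6, with log2 changes from 0.72 to 0.89 and adjusted p up to 0.0794.

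Of the 7 voltage-gated genes that fell, Kcns3 had the smallest p. Kcns3 (ENSMUSG00000043673, chromosome 12, 11090202 to 11151056, minus strand) encodes Kv9.3, a subunit that forms no channel alone and modifies those it joins. Controls 1 to 6 held 12.3, 13.4, 15.5, 13.9, 12 and 15.8 CPM, and ALI samples 1 to 6 held 6.81, 7.34, 7.74, 6.29, 4.97 and 6.56 CPM. All ALI samples were lower than all controls, and the fall was 2.09-fold (log2 change -1.06 ± 0.13, edgeR adjusted p = 1.49e-05). Kcna5, which encodes Kv1.5, an oxygen-sensitive channel of pulmonary artery smooth muscle, fell from 2.26 ± 0.592 to 0.986 ± 0.481 CPM (log2 change -1.19 ± 0.33, edgeR adjusted p = 0.0121), though on only 225 and 104 counts. The groups did not overlap, but only narrowly, with ALI 1 at 1.62 CPM and control 3 at 1.64 CPM. Of the smooth muscle markers, 5 of 9 fell as well, and their sum overlapped between groups.

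Kcnq1 and Kcnq5 fell too. Kcnq5, whose channel carries a current that steadies the resting potential, went from 14.0 ± 3.33 to 9.04 ± 2.09 CPM (log2 change -0.64 ± 0.19, edgeR adjusted p = 0.0187). Kcnq1, whose channel drives chloride secretion in airway epithelium and repolarises the heart, had the highest level per kilobase of the voltage-gated genes in controls. It ran from 33.9 to 43.1 CPM in controls (median 38.6) and from 25.3 to 35.2 CPM in ALI (median 29.2), with only ALI 3 inside the control range, and fell by 0.37 on the log2 scale (SE 0.09, edgeR adjusted p = 0.00685).

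Kcna2 and Kcnh2 were lower as well. Kcna2, a delayed rectifier of axons that is also known from smooth muscle, went from 25.4 ± 10.2 to 12.4 ± 4.66 CPM (log2 change -1.03 ± 0.29, edgeR adjusted p = 0.0136), with controls spread from 12.1 in control 5 to 40.6 in control 4. Kcnh2, the gene for the hERG channel, went from 33 ± 5.28 to 20.7 ± 3.44 CPM (-0.67 ± 0.13, adjusted p = 0.00106), with 5 of 6 ALI samples below every control. Of the voltage-gated genes not called, Kcnh1 had means of 13.5 and 12.3 CPM, and Kcnf1, Kcng1, Kcnh3 and Kcnh7 had group means between 1.91 and 3.90 CPM with adjusted p from 0.471 to 0.902.

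Tandem-pore channels, which carry the background potassium leak, were 3 higher and 3 lower of 7, each by less than 1.5-fold. Of all tested genes 18.9% were higher and 17.7% lower. Kcnk3 (ENSMUSG00000049265, chromosome 5, 30588170 to 30625271, plus strand) encodes the acid-sensitive channel TASK-1, which holds the resting potential of pulmonary artery smooth muscle and is mutated in some patients with heritable pulmonary arterial hypertension. Controls 1 to 6 held 73.4, 77.9, 67.4, 77.6, 139 and 60.4 CPM and ALI samples 1 to 6 held 51.8, 57.2, 64.0, 55.8, 54.2 and 57.6 CPM. All ALI samples but ALI 3 were below every control, and control 5 was far above the others. The log2 change was -0.54 ± 0.17 (edgeR adjusted p = 0.0206) and shrank to -0.33 without control 5, where it stayed called (adjusted p = 0.00318). Kcnk2, whose channel TREK-1 responds to stretch, showed the same sample apart: controls ran from 38.5 to 43.2 CPM except control 5 at 65.8, and ALI samples from 21 to 39.3 CPM (median 30.8). It fell by 0.53 on the log2 scale (SE 0.16, edgeR adjusted p = 0.0161), or by 0.40 without control 5 (adjusted p = 0.0150). A gene on the other strand, at 0.873 and 0.341 CPM, covers 12.2% of its exon bases.

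Kcnk5, which encodes the alkaline-activated TASK-2 of epithelia, fell with no overlap between groups. It ranged from 7.27 to 10.3 CPM in controls (median 8.41) and from 4.91 to 6.99 CPM in ALI (median 6.48), a log2 change of -0.46 ± 0.13 (edgeR adjusted p = 0.0139). The marker sums of alveolar type 1 and airway secretory epithelium were lower in every ALI sample too, as given above, and their part in the falls of Kcnk5 and Kcnq1 was not tested.

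The 3 rises in this class were small. Kcnk6 (ENSMUSG00000046410, chromosome 7, 29221926 to 29232515, minus strand) encodes TWIK-2, a potassium exit route linked to NLRP3 activation in mouse macrophages. Its level was 19.3 to 29.7 CPM in controls (median 25.1) and 29.0 to 39.9 CPM in ALI (median 32.6), and the groups met only at control 2, which lay above ALI 2 and ALI 3. The log2 change was 0.43 ± 0.12 (edgeR adjusted p = 0.00964). Kcnk13, the gene of THIK-1, known as a potassium leak of microglia, ranged from 6.0 to 10.2 CPM in controls (median 9.20) and from 9.06 to 13.2 CPM in ALI (median 12.1). Its log2 change of 0.44 ± 0.15 (edgeR adjusted p = 0.0338) lost its call without control 1 or without ALI 2, 3, 4 or 5, where it was 0.35 to 0.43 with adjusted p up to 0.0734. Kcnk1, the gene of TWIK-1, ranged from 15.0 to 23.3 CPM in controls (median 19.1) and from 21.1 to 28.5 CPM in ALI (median 24.8), a log2 change of 0.36 ± 0.12 (edgeR adjusted p = 0.0281). That call was lost without control 1, 3 or 6 or without ALI 1, 2 or 3, with log2 changes from 0.30 to 0.35 and adjusted p up to 0.0665. Kcnk12 was at 5.94 ± 2.39 and 5.71 ± 2.57 CPM and was not called (edgeR adjusted p = 0.912).

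Beside these leak channels, 4 of 6 listed genes of the inflammasome that senses potassium loss were called higher and none lower, where 18.9% of all tested genes were higher and 17.7% lower. Macrophage and neutrophil marker sums were higher in every ALI sample. Nlrp3, its sensor, went from 4.07 ± 1.25 to 23.5 ± 10.5 CPM (log2 change 2.52 ± 0.31, edgeR adjusted p = 2.43e-05) and Pycard, the adaptor, from 3.76 ± 1.15 to 10.6 ± 2.37 CPM. Casp1, the protease it activates, and P2rx7, the ATP-gated channel that opens a potassium path, rose by 1.48 and 0.47 on the log2 scale. Nek7 and Gsdmd, at 139 and 43.5 CPM in controls and 146 and 50.8 CPM in ALI, were not called.

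Of the calcium-activated channels, Kcnn3 and Kcnn4 rose and Kcnn2 fell. Kcnn3 (ENSMUSG00000000794, chromosome 3, 89520164 to 89675132, plus strand) encodes SK3, which hyperpolarises endothelium and so relaxes the underlying muscle. Controls 1 to 6 held 14.0, 6.81, 8.47, 7.51, 4.12 and 12.8 CPM and ALI samples 1 to 6 held 28.6, 30.9, 25.7, 20.8, 30.9 and 27.0 CPM. No ALI value reached down to the highest control, and the rise was 3.04-fold (log2 change 1.6 ± 0.24, edgeR adjusted p = 0.000116). The capillary endothelial marker sum was lower in ALI, as given above, and the macrophage, neutrophil and dividing-cell marker sums were higher. Their part in the rise of Kcnn3 was not tested. Kcnn4, the gene of the intermediate-conductance channel of endothelium, red cells, lymphocytes and macrophages, ranged from 4.75 to 7.20 CPM in controls (median 5.79) and from 6.23 to 14.6 CPM in ALI (median 9.71). Its ALI samples exceeded every control except ALI 3 and ALI 6, and the log2 change was 0.74 ± 0.20 (edgeR adjusted p = 0.00982).

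Kcnn2, the SK2 gene, fell from a median of 1.46 CPM (0.546 to 1.87) to 0.554 CPM (0.345 to 0.866), on 128 and 61 counts (log2 change -1.16 ± 0.34, edgeR adjusted p = 0.0148). Kcnn1 was at 2.31 ± 0.813 and 1.86 ± 0.342 CPM and was not called (adjusted p = 0.366). Kcnma1, the large-conductance channel of smooth muscle, ranged from 0.900 to 1.95 CPM in controls (median 1.13) and from 0.473 to 1.39 CPM in ALI (median 0.903) and was not called either (log2 change -0.49 ± 0.29, edgeR adjusted p = 0.202). Its beta subunit gene of smooth muscle, Kcnmb1, ranged from 3.88 to 6.06 CPM (median 5.32) and from 2.52 to 6.21 CPM (median 4.30), again not called (adjusted p = 0.230). Of the alternatives, only limma-voom with sample weights called Kcnma1 and Kcnmb1 lower (adjusted p = 0.0436 and 0.0271).

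**Figure D4:**
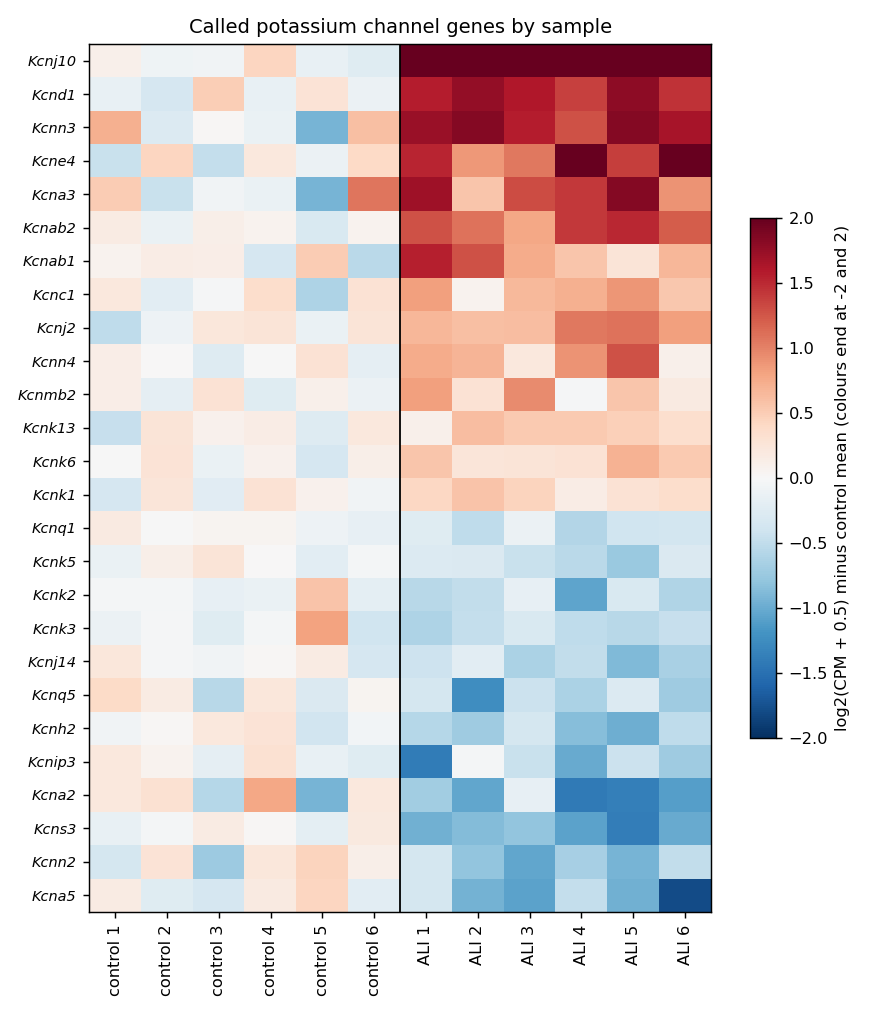
Log2(CPM + 0.5) minus the mean of the controls for 26 called potassium channel genes (rows, ordered by log2 fold change) in each of the 12 samples (columns), with the colour scale ending 2 units on either side of 0. Kcnj10 passes the end of the scale in all 6 ALI samples, the lowest values of Kcnn3 and Kcna3 are in control 5, and the highest of Kcnk2 and Kcnk3 are there too.

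Among auxiliary subunits 4 of 11 were higher and 1 lower, beside 18.9% and 17.7% of all tested genes. Kcnab2 (ENSMUSG00000028931, chromosome 4, 152390742 to 152477871, minus strand) encodes a cytoplasmic beta subunit with a redox-enzyme fold that binds Kv1 channels such as the product of Kcna3. It ranged from 17.4 to 24.2 CPM in controls (median 22.6) and from 37.0 to 61.9 CPM in ALI (median 51.5), so every ALI value was above every control. The rise was 2.35-fold (log2 change 1.23 ± 0.12, edgeR adjusted p = 3.06e-06). Kcnab1, its relative, ranged from 0.502 to 1.57 CPM (median 1.06) and from 1.24 to 3.75 CPM (median 1.86), a log2 change of 1.17 ± 0.33 (adjusted p = 0.0126) on 98 and 237 counts.

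Kcne4 (ENSMUSG00000047330, chromosome 1, 78816758 to 78820028, plus strand) encodes a single-pass subunit known to inhibit currents of Kv1.3 and of the Kcnq1 channel. Controls 1 to 6 held 4.81, 9.29, 4.70, 7.86, 6.22 and 9.09 CPM and ALI samples 1 to 6 held 20.4, 12.8, 14.6, 29.2, 18.5 and 30.5 CPM. The groups did not overlap, and the rise was 3.0-fold (log2 change 1.58 ± 0.25, edgeR adjusted p = 0.000182). Kcne2, another subunit of this family, was at 13.5 ± 1.67 and 11 ± 2.82 CPM and was called lower without ALI 2 (log2 change -0.43, edgeR adjusted p = 0.0328), against -0.30 with all samples (adjusted p = 0.164).

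The calls of Kcnmb2 and Kcnip3 lay near the threshold and were lost in several of the fits that left out 1 sample. Kcnmb2, a beta subunit of the large-conductance channel, was higher at 8.63 ± 2.38 against 6.0 ± 0.951 CPM (log2 change 0.52 ± 0.19, edgeR adjusted p = 0.0391), and lost its call without control 2, 4 or 6 or without ALI 1, 3 or 5 (0.41 to 0.51, adjusted p up to 0.0934). Kcnip3, a calcium-binding partner of Kv4 channels that also acts as a transcriptional repressor, was lower at 1.66 ± 0.690 against 2.84 ± 0.531 CPM (-0.76 ± 0.27, adjusted p = 0.0406), and lost its call without control 1, 2 or 4 or without ALI 1, 4, 5 or 6 (-0.81 to -0.62, adjusted p up to 0.0861). Kcnip2, of the same family, missed the threshold at 0.525 ± 0.318 against 1.08 ± 0.340 CPM (-1.03 ± 0.39, adjusted p = 0.0542), and was called without control 2 (-1.14, adjusted p = 0.0438), control 5 (-1.05, adjusted p = 0.0477) or ALI 6 (-1.32, adjusted p = 0.0201). Kcnip4, Kcnab3 and Kcnrg, a gene whose product hinders assembly of Kv channels, were not called, with adjusted p of 0.971, 0.684 and 0.685.

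The other 43 members stayed under 1 CPM in both groups, the highest at 0.982 CPM. Of these, 3 (Kcne3, Kcnk7 and Kcnmb4) had enough counts to be tested and none was called (edgeR adjusted p = 0.963, 0.869 and 0.692), and 6 had no counts in any sample. Kcne3, the partner of Kcnq1 in chloride-secreting epithelium, was at 0.903 CPM in controls and 0.923 CPM in ALI.

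Partner genes of potassium transport, 43 in all and 35 of them tested, held 10 called higher and 6 lower, the inflammasome genes above included, beside 18.9% and 17.7% of all tested genes. Of the HCN channels, which carry a mixed sodium and potassium current, Hcn2 was called higher and went from 3.02 ± 0.710 to 4.40 ± 0.575 CPM. Lrrc26, a subunit that lets the large-conductance channel open at rest in secretory epithelium, fell from 11.3 ± 3.89 to 5.66 ± 2.53 CPM, and Tmem38a, a potassium-permeable channel of the sarcoplasmic reticulum, from 18.1 ± 2.34 to 10.4 ± 2.78 CPM. The airway secretory marker sum was lower in every ALI sample as well, and its part in the fall of Lrrc26 was not tested. Of the cotransporters, Slc12a2, which loads cells with sodium, potassium and chloride, rose from 197 ± 16.7 to 253 ± 20.7 CPM with no overlap between groups, and Slc12a5, which exports potassium with chloride and is best known from nerve cells, fell from 9.96 ± 2.20 to 4.42 ± 1.13 CPM. Atp1b2, a beta subunit of the sodium-potassium pump, fell from 17.4 ± 3.59 to 10.7 ± 1.63 CPM. The kinases Sgk1 and Stk39 rose by 0.65 and 0.66 on the log2 scale, and the ubiquitin ligase gene Nedd4l fell by 0.43.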

How the data were processed

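Lung RNA was extracted with TRIzol, made into NEBNext Ultra libraries and sequenced on a Illumina NovaSeq, per the labels' protocols. The authors deposited whole-number counts per gene, not normalised. Tools named in the submitters' processing notes are fastp, HISAT2 and featureCounts, with GRCm38 (mm10) as the build. Neither strand use nor multi-mapping is stated there, so overlapping genes and close paralogs are uncertain. Of the 51 members reported, 4 share at least 10% of exon bases with another gene. Gene lengths are from a further column of the deposited table, and coordinates are GENCODE M21 by gene ID. Depth was 15707937 to 19706494 counts, and 0 columns of other samples were present. Within groups all 30 sample pairs differed beyond counting noise (6.91 to 239 in chi-square over its degrees of freedom).

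The table of 54532 genes was filtered with filterByExpr (minimum count 10), scaled by TMM and tested in edgeR 4.0.16 (R 4.3.3, robust quasi-likelihood F test, no covariate, Benjamini-Hochberg over 16185 genes, threshold 0.05). CPM uses the TMM-scaled library size. Standard errors are the log2 change divided by the square root of F. Alternatives were DESeq2 1.42.0, limma 3.58.1 (voom), other scalings and filters, a replicate block and samples left out.

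Members and lists were chosen with earlier results of these data known. Some genes are counted but not reported here by name or drawn. All other called members are named, with values by sample or as lowest, median and highest for the 3 smallest p in each class, the highest level per kilobase and a fixed set. Promoter sequences were matched by symbol, for 38 of 51 members.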

Additional observations from a re-analysis of the deposited data

Results flagged for a closer look

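Values of 1 sample stood apart from the 5 others of its group, by Dixon's test at the 95% level in 8 of 102 groups tested, where chance flags about 1 in 20. Control 5, which stood apart in adipose, capillary endothelial, alveolar type 1, pericyte, airway secretory and nerve and glia marker sums, accounted for 3: Kcnj8 at 31.9 CPM (others 6.01 to 8.42), Kcnk2 at 65.8 CPM (others 38.5 to 43.2) and Kcnk3 at 139 CPM (others 60.4 to 77.9). ALI 6, which had the highest cardiac muscle marker sum, accounted for 2: Kcnj3 at 6.0 CPM (others 0 to 0.719) and Kcnj5 at 4.09 CPM (others 0.690 to 1.02). The part of these tissues' RNA and of cardiac muscle RNA in these values was not tested. The low values were Kcnj11 in control 6 at 0.223 CPM (others 0.765 to 1.05), Kcnn1 in ALI 4 at 1.20 CPM (others 1.82 to 2.13) and Kcnmb1 in control 3 at 3.88 CPM (others 5.28 to 6.06).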

How the results depend on the processing

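Across 21 alternatives 21 of the 27 called members kept their call in every one that tested them, and 22 kept it with each sample left out in turn. Leaving out 1 sample gave 10 to 14 members higher and 12 to 17 lower, against 14 and 13, and 2758 to 3791 and 2411 to 3432 of all genes. Fewest rises were called without ALI 3 and most falls without control 5. With 1 sample left out Kcnj8 ran from -0.34 to 0.43. It turned from -0.21 to 0.43 without control 5 and to 0.44 without control 5 and ALI 2, and was then called. DESeq2 called 15 members higher and 14 lower, and limma-voom 14 and 18. A limit of 0.5 CPM gave 62 members and of 2 CPM 43. Samples with the same replicate number did not deviate together (correlations -0.27 to 0.27, and only number 1 matched best with its own), so the numbers are not taken as pairs. With the replicate block 12 members were higher and 12 lower, and Kcnc1, Kcnk1, Kcnip3 and Kcnq5 (-0.64, adjusted p = 0.0537) lost their call while Kcnip2 gained one. No scaling moved the median of all genes by over 0.1. Members near 1 CPM rest on few counts (79 and 150 over the groups for Kcnc1), and what change could be detected at that depth was not measured.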
